A study of Mus musculus with 12 samples.

Results

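The baseline transcriptome of CD8+ progenitor T cells (T_prog_) was described from 3 RNA-seq libraries of WT mice. Members were the genes whose mean normalized count over these 3 libraries was at least 10, and 14276 of 25860 listed genes (55.2%) met this rule. The study compared T_prog_ cells of WT and *UTX TCD* mice, with 3 RNA-seq and 3 ATAC-seq libraries of each genotype. WT mice were the Cre-negative littermates with floxed alleles of *Kdm6a*, the X-linked gene for the histone demethylase UTX. In *UTX TCD* mice the same floxed alleles were combined with a Cre transgene under the *Lck* promoter, which is active in T cells. Both genotypes were on the nonobese diabetic (NOD) background after backcrossing from B6, were female, and carried the NY8.3 T cell receptor (TCR) transgene against IGRP, a protein of pancreatic β cells. The cells were sorted from pancreatic lymph nodes, and the age of the mice is not stated for these libraries. Only the WT libraries chose and described the members, and the *UTX TCD* libraries were used only for the spread of the most variable genes.

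Stem-like progenitor CD8+ T cells keep a pool of antigen-specific cells that can renew itself and give rise to effector cells. Their identity depends on TCF1, the product of *Tcf7*, and on its relative LEF1, and they carry the surface receptor Ly108, the product of *Slamf6*. Cells of this kind recirculate through lymph nodes under CCR7 and S1PR1, depend on interleukin 7 for survival, and hold effector programs in check until they are stimulated again.

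The marker genes of the label were present in all 3 libraries. *Cd8a*, which encodes the α chain of the CD8 coreceptor, had normalized counts of 272448, 270012 and 274004 in WT replicates 1, 2 and 3. *Tcf7* had 244276, 234809 and 227809.8, and *Lef1* had 105496, 109084 and 95133. These 3 markers differed little between libraries, with a coefficient of variation (CV, the SD divided by the mean, n = 3) of 0.00739 for *Cd8a*, 0.0351 for *Tcf7* and 0.0702 for *Lef1*. *Slamf6* was less even, at 27732, 34096 and 23305, and was highest in WT replicate 2. Its CV was 0.191, and 0.123 without that library.

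Levels of different genes were compared per length, as the mean normalized count per kb of annotated exon, and the order of unscaled normalized counts also depends on gene length. Per kb *Cd8a* stood at 86950.3, *Lef1* at 22775, *Tcf7* at 21527 and *Slamf6* at 7789.6, against a median of 868 over members. The gate is given as Ly108+ cells without CXCR6 in the labels and without CD39 in the paper. *Entpd1*, which encodes CD39, was near the lower end of the members, at 10.9, 29.6 and 11.4. *Cxcr6*, in contrast, was counted at 12757, 9619 and 13724, or 6357 per kb, the 89.9th percentile of members. RNA of the chemokine receptor was therefore present in a population that the labels describe as negative for its protein, and in bulk RNA a smaller number of cells of a type and less RNA per cell cannot be told apart.

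Sequencing was deep, with 146456724, 144503203 and 193568919 recovered reads in WT replicates 1, 2 and 3. Reads were detected from 18339, 18420 and 17654 genes, and 5956 listed genes were at 0 in all 3 libraries. Just inside the rule were *Slc24a3*, with a mean of 10.001, and *Pnpla3*, with 10.03. Just outside it were *A530095I07Rik*, with 9.998, and *Syt13*, with 9.989. Members held 99.99% of the summed normalized counts.

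WT replicate 2 stood apart from the other libraries in several gene groups. Members differed by a median of 0.08 on the log2 scale between replicates 1 and 3, by 0.11 between replicates 1 and 2, and by 0.13 between replicates 2 and 3. Differences of at least 2-fold were found for 282 members between replicates 1 and 3, for 349 between replicates 1 and 2, and for 519 between replicates 2 and 3. *Rn45s*, the precursor of ribosomal RNA, took 1.58%, 0.726% and 1.71% of the summed counts in replicates 1, 2 and 3. Poly(A) selection is meant to remove this RNA, and its share was lowest in replicate 2. The part of ribosomal RNA carry-over in the results below was not tested. Many CVs are therefore given both with and without replicate 2.

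The order of the libraries in a list of genes was read against the order over all members. Of the 14276 members, 26.1%, 36.1% and 37.8% were highest in replicates 1, 2 and 3, and 30.0%, 39.7% and 30.3% were lowest there. Under 3 other scalings of the libraries, 5360 to 6517 members were highest in replicate 2 and 3828 to 5054 in replicate 3. Members lowest in replicate 2 numbered 4477 to 5493 under those scalings, and members lowest in replicate 3 numbered 4604 to 5650. Where counts of a list under other scalings are given below, the share beside them is the one as reported, and it moves with the scaling too.

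By level, the highest mean normalized counts belonged to *Rn45s*, the mitochondrial gene *COX1* and the translation factor *Eef1a1*. The other 17 of the top 20 were *CYTB*, *Actb*, *Macf1*, *Ptprc*, *ND1*, *ND5*, *Eef2*, *Myh9*, *Rpl4*, *Malat1*, *ND2*, *A130040M12Rik*, *Pabpc1*, *ND4*, *B2m*, *Ets1* and *Srrm2*. Together the 20 held 8.40% of the counts. Among them, *Ptprc* encodes CD45, the phosphatase of all white blood cells, and *Ets1* encodes a transcription factor of lymphocytes. Genes with no matched exon length, among them *Rn45s* and *A130040M12Rik*, have no rank per kb. Per kb the order of the others changed, and *COX1* (1049463), *CYTB* (725798), *ND1* (549593), *Eef1a1* (512998) and *Rps14* (430634) led. They were followed by *B2m* (377045), the light chain of MHC class I, and *Actb* (348030.2), and among the next genes were *ND2*, *Rpl32*, *Tmsb10*, *ND6*, *Rps27*, *Rpl12*, *Rps15*, *ND5*, *Rps3a1*, *Rpl4*, *Trbc2* and *ND4*. The per-kb ranking was thus made of mitochondrial respiration, protein synthesis, the actin cytoskeleton, antigen presentation and the constant region of the TCR β chain.

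Replicate spread was small for most members. The median CV was 0.0620, with quartiles of 0.0351 and 0.130, whereas counting error alone gave a median of 0.0186. A spread was called wide at a CV of at least 0.25 and tight at a CV of at most 0.05, and 1606 members (11.2%) were wide and 5744 (40.2%) tight. Over the same members without replicate 2, the median CV was 0.0405, with 1181 (8.27%) wide and 8261 (57.9%) tight. Spread was widest at low levels, so the wide and tight genes of a list depend on its level. Where a list is set below against the range of its median mean, its members in other ranges have other shares. Among the 2673 members with a mean from 10 to 100, 48.4% were wide, and counting error alone gave a median CV of 0.170 there. The share of wide members was 9.89% at a mean from 100 to 1000, 0.764% from 1000 to 10000, 0.190% from 10000 to 100000 and 1.66% (3 of 181) from 100000 upwards. Among the 8974 members with a mean of at least 1000, 52 (0.579%) were wide and 5182 (57.7%) tight. The lists said below to have no wide gene over all 3 libraries each had a median mean of at least 1000. Finding none in them is near this share. The 52 became 109 without replicate 1, 39 without replicate 2 and 58 without replicate 3. By kind of gene, 8.71% of protein-coding members were wide, against 24.9% of long noncoding RNAs, 44.0% of small nucleolar RNAs and 67.3% of microRNAs. These kinds also differed in level, with a median mean of 3545, 119.6, 91.5 and 32.2 in that order.

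**Figure D1:**
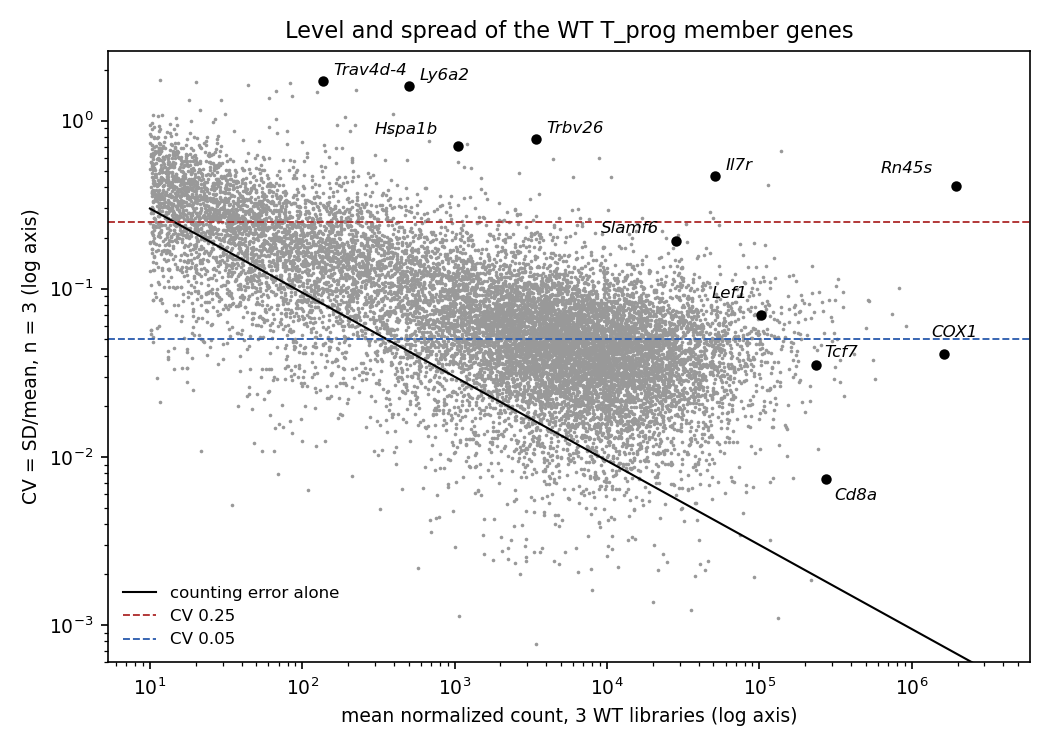
Each point is 1 of the 14276 member genes, with its mean normalized count over the 3 WT libraries on the x axis and its CV on the y axis, both on log scales. The black line gives the CV from counting error alone and the dashed lines the limits of 0.25 and 0.05; *Il7r*, *Trbv26*, *Hspa1b* and *Rn45s* lie above the upper limit, and *Tcf7* and *Cd8a* below the lower one.

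Transcription factors of stemness and quiescence were abundant. All 27 listed genes were members, with a median of 4655 per kb against 868 over members. *Ets1*, needed for T cell survival, was the highest per kb (59032), followed by *Ikzf1* (Ikaros, 28135), *Lef1* and *Tcf7*. *Klf2*, which drives the genes of lymph node exit, stood at 19734 per kb, and *Foxo1*, an activator of *Il7r* and *Klf2*, at 13080.3. *Satb1*, a chromatin organizer of T cells, reached 9082 per kb, and *Myb*, a regulator of stem-like CD8+ T cells, 3951. *Bach2* and *Bcl6*, repressors of effector differentiation, were lower per kb, at 668 and 677, and *Klf7* was the lowest of the list (296).

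Spread in this list was close to that of other genes at its level. The median CV was 0.0389, and 0.0380 over all members with a mean from 10000 to 100000, the range that holds the list's median mean of 35837. Of the 27 genes, 18 (66.7%) were tight and 1 (3.70%) was wide, against 67.9% and 0.190% of the members in that range. The wide gene was *Id3*, an inhibitor of E proteins in memory precursors, with normalized counts of 1755, 2918 and 1933. Its mean of 2202 lay below that range, and 0.764% of members with a mean from 1000 to 10000 were wide. *Id3* was highest in replicate 2, and its CV fell from 0.284 to 0.0682 without that library.

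Transcription factors of effector and exhausted cells were lower per kb, and much of their spread came with replicate 2. Of 25 listed genes 24 were members, with a median of 1057 per kb and a median CV of 0.151, and 5 of the 24 (20.8%) were wide. The share was 11.2% over all members and 0.764% over those with a mean from 1000 to 10000, the range of the list's median mean of 3763. Some wide genes of the list lay below that range, as *Nr4a2* with a mean of 340. From 100 to 1000, 9.89% of members were wide. Without replicate 2 the median CV was 0.0264 and 1 of the 24 (4.17%) was wide, against 0.0315 and 0.640% over members in that range. Without replicates 1 and 3, 8 (33.3%) and 6 (25%) were wide, against 1.62% and 0.729% there. The list was not uniformly low. *Id2*, which blocks E proteins in effector cells, stood at 13435 per kb, *Stat4*, the transducer of interleukin 12, at 12436, and *Runx3*, the factor that fixes the CD8 lineage, at 8679.8. *Eomes*, a T-box factor of memory cells, was at 3753 per kb and *Tox*, the factor of exhausted cells, at 2672. *Tbx21*, which encodes T-bet, was much lower (276 per kb). *Prdm1* (Blimp-1) and *Zeb2*, drivers of terminal effector cells, were at 9.03 and 4.34 per kb, and *Batf3* fell below the rule for members.

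In 17 of the 24 members of this list the highest value was in replicate 2, against 36.1% of all members, and this count was 18 to 19 under the other scalings. *Irf4*, a factor induced by TCR signals, had normalized counts of 2046, 3366 and 2097. *Nr4a2*, an orphan nuclear receptor induced by the same signals, had 261, 486 and 275, and *Bhlhe40* had 85.2, 210.3 and 106. For *Id2* the values were 15459, 22179 and 13629.8. In each of these 4 genes replicate 2 lay above the others, and without it the CV fell from 0.299 to 0.0176 for *Irf4* and from 0.263 to 0.0889 for *Id2*. It fell from 0.371 to 0.0371 for *Nr4a2* and from 0.501 to 0.154 for *Bhlhe40*. Markers of natural killer (NK) cells moved with this list, since all 5 that were members, among them *Eomes*, which both lists hold, were highest in replicate 2 under every scaling. Their summed counts were 13593, 15569 and 13329, and *Ncr1*, which defines NK cells, was at 6.93, 0 and 0.

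**Figure D2:**
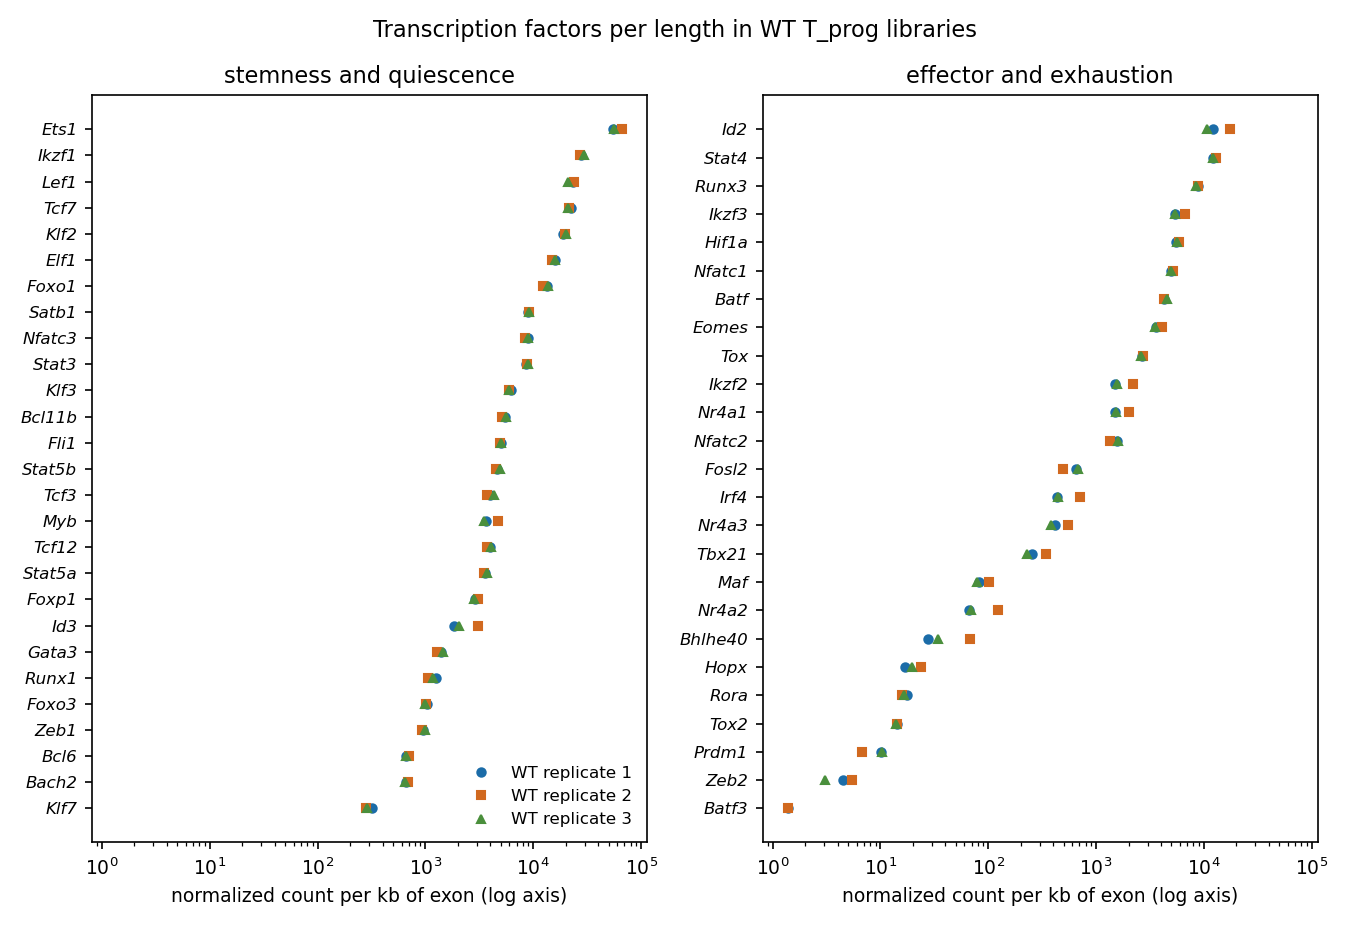
Normalized counts per kb of exon (log axis) are shown for the 27 stemness and quiescence genes and the 25 effector and exhaustion genes, with 1 symbol for each WT library. The first list runs from *Klf7* at 296 to *Ets1* at 59032 per kb and the second from *Batf3* at 0.926 to *Id2* at 13435, and a value of 0 (*Batf3* in replicate 3) is not drawn.

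Factors of other lineages were low. Of 15 listed genes 10 were members, with a median of 79.1 per kb. *Foxp3*, the factor of regulatory T cells, stood at 69.9 per kb. *Irf8* was the highest of the list (493 per kb). *Pax5* and *Ebf1* of B cells, *Spi1* and *Cebpa* of myeloid cells and *Zbtb16* of innate-like T cells did not reach a mean of 10.

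Genes of the TCR complex and its proximal signals were among the highest per kb. All 21 listed genes were members, and their median was 42549 per kb. None was wide, against 0.190% of members with a mean from 10000 to 100000, the range of the list's median mean of 68519. *Trbc2*, a constant region of the TCR β chain, was the highest (241239 per kb), ahead of *Cd3g* (122922) and *Trac* (111778). *Lck*, the kinase bound to CD8, stood at 68359 per kb, and *Lat*, the adaptor it helps to activate, at 42549. *Zap70*, which phosphorylates that adaptor, stood at 9506 and *Fyn* was the lowest of the list at 8845.

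The NY8.3 receptor pairs a Vα17 chain, encoded in the *Trav16* family, with a Vβ8.1 chain, encoded by *Trbv13-3*. *Trbv13-3* held 54.2%, 53.4% and 53.9% of the counts over the 24 listed *Trbv* segments in replicates 1, 2 and 3. Its normalized counts were 68737, 65368 and 69601. The 3 genes of the *Trav16* family held 43.5%, 43.6% and 51.0% of the counts over 116 *Trav* segments. Other V segments carried the rest, of which *Trbv13-2* had 7123, 6978 and 6897, *Trbv3* 6727, 6734 and 5688 and *Trbv15* 7062, 6321 and 7081. V segments of 1 family, such as *Trbv13-2* and *Trbv13-3*, are near-identical, so reads can be counted on the wrong member and the level of each is uncertain. *Trbv3* and *Trbv15* are not of that family.

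*Trbv26* set replicate 3 apart, with normalized counts of 1866, 1927 and 6488, or 1.47%, 1.58% and 5.02% of the *Trbv* counts. *Trav4d-4* had 0, 2.96 and 406, and *Trav16* itself had 747, 673 and 1751. All 3 segments were highest in replicate 3. Of the *Trav* segments 67 of 116 were members and 25 of them (37.3%) wide. Their median mean was 36.4, and 48.4% of all members with a mean from 10 to 100 were wide. Without replicate 3 the 25 became 12 (17.9%), against 37.6% of those members. Of the *Trbv* segments 22 of 24 were members and 1 (4.55%), *Trbv26*, was wide. The share was 0.764% over members with a mean from 1000 to 10000, the range of these segments' median mean of 2365. None was wide without replicate 3, against 0.729% of members in that range. Replicate 3 was highest in 37 of the 67 *Trav* members (36 to 37 over all scalings), against 37.8% of all members, but lowest in 13 of the 22 *Trbv* members (13 to 15), against 30.3%. Of the joining segments of the α chain, 47 of 51 *Traj* members were lowest in replicate 3, against the same 30.3%, and their summed counts were 21593, 20943 and 15739.

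Chains shared by several cytokine receptors led the list of these receptors per kb. Of 26 listed genes 25 were members, with a median of 5141 per kb. *Il2rg*, the chain shared by the receptors of interleukins 2, 7, 15 and 21, stood at 64975 per kb. *Il6st* (gp130) followed at 24842, *Il27ra* at 20006 and *Tgfbr2*, a receptor for the inhibitory cytokine TGF-β, at 17186. *Il7r* came next at 15249, a mean raised by replicate 2. *Il2rb* was at 8449 per kb, whereas *Il2ra*, the chain added on activation, was at 104. The receptor chains of interleukin 12 were low, with 313 per kb for *Il12rb1* and 119 for *Il12rb2*.

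*Il7r*, which encodes the α chain of the interleukin 7 receptor, was the 1 wide member of this list (4%). Over all members the share was 11.2%. It was 0.190% over those with a mean from 10000 to 100000, the range of the list's median mean of 18259. Wide members of the list numbered 3, 1 and 2 without replicates 1, 2 and 3, and *Il7r* was not the 1 without replicate 2. In that range, 0.474%, 0.0632% and 0.442% of members were then wide. Normalized counts of *Il7r* were 38077, 79127 and 37105, so replicate 2 held 2.13 times the count of the lowest library. Per kb they were 11289, 23459 and 11001. Replicates 1 and 3 were close to each other, and the CV was 0.466 with and 0.0183 without replicate 2. In the *UTX TCD* libraries the CV of *Il7r* was 0.0325.

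Receptors of recirculating cells were high in the list of homing genes. Of 28 listed genes 26 were members, with a median of 6349 per kb. *S1pr1*, which allows exit into lymph, stood at 31520.2 per kb and *Ccr7*, the receptor that guides cells into the T cell zone, at 26317. *Cxcr4* was the highest per kb (40414) and was lowest in replicate 2, at 85023, 58899.6 and 79282 (CV 0.185, and 0.0494 without replicate 2). *Ccr9* and *Itgb7*, receptors of gut homing, stood at 20713 and 20499 per kb. Of the receptors that guide effector cells into tissue, *Cxcr3* stood at 817 per kb, *Ccr2* at 9.60 and *Cx3cr1* at 2.98, whereas *Cxcr6*, at 6357, lay near the median of the list. *Itga1* and *S1pr5* did not reach a mean of 10.

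Costimulatory receptors were all detected as members (17 of 17), and their median was 6170 per kb. None was wide, against 0.190% of members with a mean from 10000 to 100000, the range of the list's median mean of 15197. Without replicate 1, 1 (5.88%) was wide, against 0.474% in that range. *Cd2*, an adhesion receptor that lowers the threshold for activation, was the highest (57638 per kb), followed by *Cd27* (29105), a receptor that supports survival. Members of the SLAM family besides *Slamf6* were present too, with 18933 per kb for *Ly9* and 6169.9 for *Cd84*. *Cd28* stood at 7137 per kb, *Icos* at 2042 and *Tnfrsf9* (4-1BB) at 2248. *Cd40lg*, a ligand of helper T cells, was the lowest (34.9).

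Inhibitory receptors and ectoenzymes were mostly low. All 16 listed genes were members, with a median of 242 per kb. *Vsir*, which encodes VISTA, a checkpoint of resting T cells, stood at 7434 per kb and *Btla* at 2867. *Pdcd1* (PD-1) was at 218 per kb, *Lag3* at 133, *Havcr2* (TIM-3) at 6.61 and *Tigit* at 4.35. The receptors that mark exhausted cells thus lay well below VISTA per kb.

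Of these 16 genes 12 were highest in replicate 2, against 36.1% of all members, and the count was also 12 under each of the 3 other scalings. The wide genes numbered 6 (37.5%), against 9.89% of members with a mean from 100 to 1000, where the list's median mean of 789 lies. None was wide without replicate 2, against 7.23% of members in that range. *Nt5e* (CD73), which makes adenosine, had normalized counts of 326, 811 and 315. *Cd38*, which consumes NAD, had 639, 1128 and 629.9, and *Art2b*, an enzyme that transfers ADP-ribose to surface proteins, had 8299, 13498 and 8468. *Lag3* had 303, 524 and 264 and *Tigit* had 67.4, 184 and 73.2. All 5 were highest in replicate 2, and the other wide gene of the list was *Entpd1*. Without that library the CV fell from 0.585 to 0.0241 for *Nt5e*, from 0.606 to 0.0589 for *Tigit* and from 0.386 to 0.0979 for *Lag3*. For *Art2b* it fell from 0.293 to 0.0143, and *Cd38*, with a CV of 0.357, became tight. The 5 NK cell markers that were members were highest in the same library.

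Cytotoxic and effector molecules ranged widely in level. Of 30 listed genes 27 were members, with a median of 1072 per kb against 868 over members. Of the 27, 9 (33.3%) were wide, most of them at low counts, against 11.2% of all members. The list's median mean of 1109 lies just inside the range from 1000 to 10000, where 0.764% of members were wide. Below that range the share was 9.89% from 100 to 1000 and 48.4% from 10 to 100. Without replicate 2, 4 (14.8%) were wide, against 8.27% of all members. *Nkg7*, a regulator of granule release, stood at 35287 per kb, *Ctsw*, a granule protease, at 31266 and *Prf1* (perforin) at 4146. Granzymes were lower, with 327 per kb for *Gzmb*, 243 for *Gzma* and 36.9 for *Gzmk*. *Ifng* had normalized counts of 10.9, 20.7 and 32.8, or 17.7 per kb, and *Il2* and *Ccl3* did not reach a mean of 10. *Klrg1*, a marker of terminal effector cells, was at 0, 1.97 and 0.

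Surface and survival genes of naive and memory cells were high per kb for *Thy1* (89995), *Ly6a* (69529.7) and *Dapl1* (30268). Of 17 listed genes 16 were members and their median was 7017 per kb. *Mcl1*, an antagonist of cell death, stood at 12523 per kb and *Bcl2* at 2413. *Bcl2l11* (BIM), which opposes them, had 1413 per kb and normalized counts of 13309.6, 20349 and 13858. Of the 16 members, 11 were lowest in replicate 2 (8 to 11 over all scalings), against 39.7% of all members, and 4 were highest there. The GIMAP GTPases, which support survival of resting lymphocytes, were all members (8 of 8), with a median of 14319 per kb and *Gimap6* highest (50612). In 7 of the 8, also under each of the other scalings, replicate 2 had the highest value, against 36.1% of all members. None was wide, as for *Gimap8* with 61083, 70394 and 62239.

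Immediate-early and stress genes were present without being uniformly high. Of 28 listed genes 27 were members, with a median of 4482 per kb. Of the 27, 4 (14.8%) were wide, against 11.2% of all members. The share was 0.190% over members with a mean from 10000 to 100000, the range of the list's median mean of 11939. *Egr2*, among the wide genes, lay below that range with a mean of 3277, and 0.764% were wide from 1000 to 10000. None was wide without replicate 2, against 0.0632% of members in that range. *Hspa8*, a chaperone made without stress, stood at 55997 per kb and *Cd69*, which holds cells in lymph nodes by retaining S1PR1, at 5445. *Egr1* was at 4537 per kb, *Fos* at 671 and *Jun* at 391, all of them factors induced within minutes of stimulation. *Egr2*, a target of TCR signals, had normalized counts of 2749.9, 4248 and 2832, and *Hsph1*, a partner of the HSP70 chaperones, had 41271, 64654 and 43018. Both were wide and highest in replicate 2, and their CVs of 0.257 and 0.262 became 0.0209 and 0.0293 without it.

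The 2 heat-inducible HSP70 genes, in contrast, were lowest in replicate 2. *Hspa1b* had normalized counts of 1476, 199 and 1471 and *Hspa1a* had 895, 89.8 and 1051. Replicates 1 and 3 were close to each other for *Hspa1b*, with a CV of 0.701 over 3 libraries and 0.00233 without replicate 2. For *Hspa1a* the CV was 0.760, and 0.113 without that library. The genes are near-identical neighbours on chromosome 17, so the split of reads between them is uncertain. Their RefSeq promoters (GRCm38.p6, minus strand, 250 bases before to 50 after the start) are shown because both genes moved together, and this pair was chosen after the values were seen. Capitals mark the match to GAANNTTC, a pair of inverted heat shock element units, which reads the same on both strands.
Hspa1a promoter, chr17:34972107-34972406: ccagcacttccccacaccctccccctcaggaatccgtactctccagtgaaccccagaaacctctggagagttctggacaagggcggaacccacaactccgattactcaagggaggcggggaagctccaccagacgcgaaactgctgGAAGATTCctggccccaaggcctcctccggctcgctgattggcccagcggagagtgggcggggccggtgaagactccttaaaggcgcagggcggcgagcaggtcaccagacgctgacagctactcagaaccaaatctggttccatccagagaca
Hspa1b promoter, chr17:34959189-34959488: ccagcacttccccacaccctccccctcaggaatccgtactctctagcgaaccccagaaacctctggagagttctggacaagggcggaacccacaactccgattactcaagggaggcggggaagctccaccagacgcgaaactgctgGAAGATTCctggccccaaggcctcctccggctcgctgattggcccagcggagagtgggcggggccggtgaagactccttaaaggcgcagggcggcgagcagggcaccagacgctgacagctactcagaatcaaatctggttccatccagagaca
The sequences were identical at 296 of 300 bases (98.7%), and each held 1 match. The same letters were found in 2149 of 27025 promoters of this length (7.95%) and in 598 of 10525 promoters of members (5.68%). The longer form GAANNTTCNNGAA, which contains the shorter one and was searched on both strands, had 0 matches in either promoter and was found in 143 of the 27025 (0.529%). A match is a description of the sequence and does not show that a factor was bound.

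Glycolytic genes were all members (23 of 23), and their median was 1395 per kb. None was wide over all 3 libraries. Without replicate 1, 1 (4.35%) was wide, against 1.62% of members with a mean from 1000 to 10000. *Aldoa*, *Gpi1*, *Pkm* and *Eno1*, enzymes of the core pathway, stood at 15033, 14348, 13695 and 13251 per kb. The hexokinase was mainly *Hk1* (5431 per kb), the form of resting cells, rather than *Hk2* (166), which activation induces. Glucose transporters were represented by *Slc2a3* (1395 per kb) and *Slc2a1* (743). *Gapdh* was at 886 per kb, but it has many near-identical pseudogenes and its count is uncertain where reads with several positions are dropped.

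Mitochondrial metabolism was higher per kb. The 25 listed genes of pyruvate dehydrogenase and the TCA cycle were all members, with a median of 4584 per kb and none wide. *Mdh2* led with 17813 per kb, ahead of *Mdh1* (12682) and *Cs* (10204), the enzyme that feeds acetyl-CoA into the cycle. All 21 genes of fatty acid oxidation were members, with a median of 2909 per kb. *Hadha*, a subunit of the trifunctional protein, stood at 11581 per kb and *Cpt1a*, which controls entry of fatty acids into mitochondria, at 2909, whereas the muscle form *Cpt1b* stood at 16.2.

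Respiratory chain genes of the nucleus (78 of 79 members) had a median of 7163 per kb, with *Atp5f1b*, a subunit of ATP synthase, at 53197. Of these 78, 4 (5.13%) were wide, against 11.2% of all members and 0.764% of those with a mean from 1000 to 10000, the range of the list's median mean of 7493. Without replicate 3 none was wide, against 0.729% of members in that range. Without replicate 1 or without replicate 2, 5 (6.41%) were wide, against 1.62% and 0.640% there. In 44 of the 78 replicate 3 was highest (34 to 41 under the other scalings), against 37.8% of all members. The wide genes, in contrast, included *Cox7a2* with normalized counts of 1591, 1581 and 880.1 and *Ndufa6* with 1839, 1707 and 1075, both lowest in replicate 3. The 13 genes of the mitochondrial genome, listed after their symbols were seen in the table, had a median of 239978 per kb. All 13 were lowest in replicate 3, also under the other scalings, against 30.3% of all members, with summed counts of 4662803, 4402352 and 4025829. *COX2*, *COX3* and *ATP6* were lower per kb (8420.5, 5794 and 13064), and nuclear copies of mitochondrial genes make these counts uncertain. *ATP6* was the 1 wide gene of the 13 (7.69%), at 14951, 6966 and 4773. Of members with a mean from 100000 upwards, the range of the list's median mean of 167362, 1.66% were wide.

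Genes of sterol and fatty acid synthesis were all members (29 of 29), with a median of 1101 per kb and none wide. *Acly*, which makes cytosolic acetyl-CoA, was the highest (10166 per kb), and *Scd1* was the lowest (34.3). In 24 of the 29 replicate 2 had the lowest value, and in 22 to 24 under the other scalings, against 39.7% of all members. *Srebf2*, the factor that drives the sterol genes, had normalized counts of 28632, 24722 and 30153. The differences were small, and no gene of the list reached a CV of 0.25 over all 3 libraries. Without replicate 1, 1 (3.45%) did, against 1.62% of members with a mean from 1000 to 10000.

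Amino acid transporters (11 of 12 members) had a median of 2243 per kb, with *Slc38a2*, a carrier of small neutral amino acids, at 8615. *Slc7a5*, the carrier of large neutral amino acids that activation induces, stood at 1554 per kb, and the cystine carrier *Slc7a11* did not reach a mean of 10. The 11 genes of serine and one-carbon metabolism were all members, with a median of 1706 per kb and *Shmt2*, the mitochondrial enzyme that splits serine, highest (7441). Nutrient sensing genes (17 of 17 members) had a median of 3842 per kb, and 13 of the 17 (76.5%) were tight, against 67.9% of members with a mean from 10000 to 100000. *Txnip*, which limits glucose uptake, led with 45021 per kb, followed by *Ddit4* (23561), an inhibitor of mTORC1, while *Mtor* itself stood at 1843. No gene of these 3 lists was wide.

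Quiescence and cell cycle genes were found side by side. All 12 quiescence regulators were members, with a median of 9238 per kb. *Slfn2*, whose loss breaks T cell quiescence, stood at 25498 per kb, *Btg1*, which destabilizes mRNA in resting T cells, at 22048 and *Cdkn1b* (p27) at 10007. All 22 cell cycle genes were members too, with a median of 1460 per kb. *Ccnd2* and *Ccnd3*, cyclins of G1, stood at 21578 and 10532 per kb and *Pcna*, the clamp of DNA replication, at 12743. Genes of G2 and mitosis were lower, with 147 per kb for *Ccnb1*, 156 for *Cdk1* and 212 for *Aurkb*. *Mki67* stood at 1372 per kb. In 14 of the 22 the highest value was in replicate 2 (14 to 16 over all scalings), against 36.1% of all members, as for *Top2a* with 7507, 9071 and 7685. None was wide, and the summed counts of 302403, 296264 and 308041 were lowest in replicate 2, as were those of *Ccnd2*, the gene with the most counts in the list (143103, 125958 and 145759).

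Ribosomal protein genes (85 of 86 members) had a median of 78179 per kb. Replicate 3 was highest in 62 of the 85, and in 54 to 61 under the other scalings, against 37.8% of all members, with summed counts of 7317588, 6958179 and 7652455. Replicate 2 was lowest in 56 of the 85 (44 to 52 under the other scalings), against 39.7% of all members. The 2 wide genes were 2.35% of the list, against 11.2% of all members and 0.190% of those with a mean from 10000 to 100000. That range holds the list's median mean of 73359. Of the 2, *Rpl29* had 548, 479.8 and 219.6. Its mean of 416 lay below that range, and 9.89% of members with a mean from 100 to 1000 were wide. Ribosomal protein genes have near-identical pseudogenes that make their counts uncertain. The histone pattern matched 108 symbols and 43 members, of which 18 (41.9%) were wide, against 48.4% of members with a mean from 10 to 100, the range of their median mean of 66.6. The 18 became 9 (20.9%) without replicate 2 and 12 (27.9%) without replicate 3, where 35.6% and 37.6% of the members in that range were wide. The match with the most counts, *H13*, encodes a peptidase and not a histone, and replication-dependent histone mRNAs lack the poly(A) tail used to select the RNA.

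Interferon-stimulated genes were well represented. All 25 that were found were members, with a median of 3770 per kb. *Irf7*, which amplifies interferon signals, stood at 7549 per kb. Replicate 2 was lowest in 21 of the 25 (20 to 21 over all scalings), against 39.7% of all members. *Ifit1* had normalized counts of 10209, 7482 and 10482, *Ifit3* 3532, 2593 and 4024 and *Oasl2* 2940.1, 1743 and 2998. *Oasl2* was the 1 wide gene, with a CV of 0.277 and 0.0138 without replicate 2. The share wide was 4%, against 11.2% of all members and 0.764% of those with a mean from 1000 to 10000. That range holds the list's median mean of 9391. Without replicate 1, 4 (16%) were wide, against 12.2% of all members and 1.62% in that range. Genes of MHC class I presentation (13 of 13 members) had a median of 11424 per kb and a median CV of 0.0189, against 0.0380 over members with a mean from 10000 to 100000. *H2-K1* and *H2-D1*, the classical class I chains, stood at 32002 and 71019.8 per kb, and as near-identical genes of a polymorphic family they are uncertain on a B6 reference.

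The sort took CD8+ cells, a gate meant to remove other cell types, and markers of such cells were read as a check. Of 10 B cell markers 8 were members, with summed counts of 115868, 98190 and 107613, nearly all from *Ighm* (111647, 94692 and 103781). *Cd79b* and *Cd79a*, the signalling chains of the B cell receptor, had 2502, 1930.1 and 2465 and 415, 465 and 285. *Ighd* had 1150.1, 911 and 924, *Cd22* 79.2, 102 and 79.3 and *Igkc* 34.7, 43.4 and 23.6. *Ms4a1* (CD20) had 5.94, 19.7 and 8.39, and *Pax5* and *Ebf1*, factors that define B cells, had 1.98, 3.95 and 10.7 and 5.94, 4.94 and 4.58. The markers thus ran from near 0 to abundant, and 3 of 226 immunoglobulin V segments were members. Of 8 plasma cell markers only *Jchain* was a member, and the 8 summed to 59.4, 62.2 and 37.4. Counts on *Trdc*, a constant region of the δ chain within the α locus, were 64851, 57643 and 59996, and the 5 γδ T cell markers, all members, summed to 67514, 60289 and 62417.

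Myeloid markers (8 of 12 members) summed to 1522, 1503 and 1330.0, with *Cd68* holding the most counts and *S100a8* and *S100a9* at 0. Dendritic cell and MHC class II genes (6 of 10) summed to 681, 734 and 571, with *Cd74* holding the most counts. CD4 T cell markers (6 of 6) summed to 1702, 1807 and 1638, with *Ctla4* holding the most counts and *Cd4* at 90.1, 104 and 83.1. *Cd4*, which defines that lineage, was thus far below *Cd8a* per kb (26.6 against 86950.3). The NK cell markers (5 of 8 members) owed nearly all of their counts to *Eomes*, which CD8+ T cells also express, with *Klra8* at 0. All 5 were lowest in replicate 3, and *Klrb1c*, which encodes NK1.1, had 28.7, 55.3 and 16.8. Their part in the differences of replicate 2 was not tested. Thymocyte markers (4 of 7) summed to 1015, 911 and 964, with *Dntt* holding the most counts and *Rag1* at 0, 3.95 and 1.53. Erythroid and platelet markers (3 of 7 found) summed to 639.9, 612 and 554, with *Itga2b* holding the most counts and *Ppbp* at 0.

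Pancreatic acinar markers (4 of 18 members) summed to 494, 491 and 390.5, with *Ctrl* holding the most counts and 6 of the 18 at 0, among them *Pnlip* and *Reg1*. No islet marker was a member (0 of 7), and *Ins2*, *Sst* and *Iapp* were at 0. Stromal and endothelial markers (6 of 11) summed to 32297, 29950 and 32504, nearly all from *Pecam1*, an adhesion molecule that T cells also express, with *Ccl19* and *Ccl21a* at 0. Of these 6 members, 5 (83.3%) were wide, against 9.89% of members with a mean from 100 to 1000, where their median mean of 258 lies. Without replicate 2, 1 was wide, against 7.23% of members in that range. Replicate 2 was lowest in 5 of the 6, also under the other scalings, against 39.7% of all members. Among these were the collagen genes *Col1a1* and *Col3a1*, with 455, 254 and 463 and 326, 132 and 376. Their part in the other differences of replicate 2 was not tested. As a check of the labels, *Xist*, the RNA of the inactive X chromosome, had 147181, 170559 and 154665, and of 4 genes of the Y chromosome, *Kdm5d* and *Uty* were at 0 in all 3 libraries, *Ddx3y* had 2.97, 0 and 9.15 and *Eif2s3y* had 1.98, 0.987 and 0.

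The widest members with a mean of at least 1000 included genes with 1 library apart from the others. The 20 with the highest CV were *Trbv26*, *Gpr83*, *Hspa1b*, *Rn18s*, *ATP6*, *Coro2a*, *Trav16*, *Ddx43*, *Gm10335*, *Ms4a6d*, *Il7r*, *Gm6548*, *Hsd17b11*, *Trav16n*, *Lars2*, *Rn45s*, *Snord35b*, *Snrpf*, *H2-Q2* and *Cd24a*. Of these, 11 were highest in replicate 3, 7 in replicate 2 and 2 in replicate 1, against 37.8%, 36.1% and 26.1% of all members. Replicate 2 was lowest in 9 of the 20, against 39.7% of all members. *Gpr83*, an orphan receptor, had normalized counts of 693, 2202 and 697, and *Coro2a*, an actin-binding protein, had 2804, 7410.5 and 2968. *Rn45s* had 2296155, 1036247 and 2523251, *Rn18s* 121073, 57411 and 239502 and *Lars2*, whose gene contains sequence that is similar to ribosomal RNA, 121389, 63769 and 156770.3. Replicate 2 was highest for the first 2 genes and lowest for the other 3. Leaving it out took the CV from 0.726 to 0.00370 for *Gpr83*, from 0.595 to 0.0401 for *Coro2a* and from 0.410 to 0.0666 for *Rn45s*. Without replicate 2, 11 of the 20 still had a CV of at least 0.25. In the *UTX TCD* libraries, too, 11 of the 20 reached that CV, against 0.869% of all members with a mean of at least 1000.

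**Figure D3:**
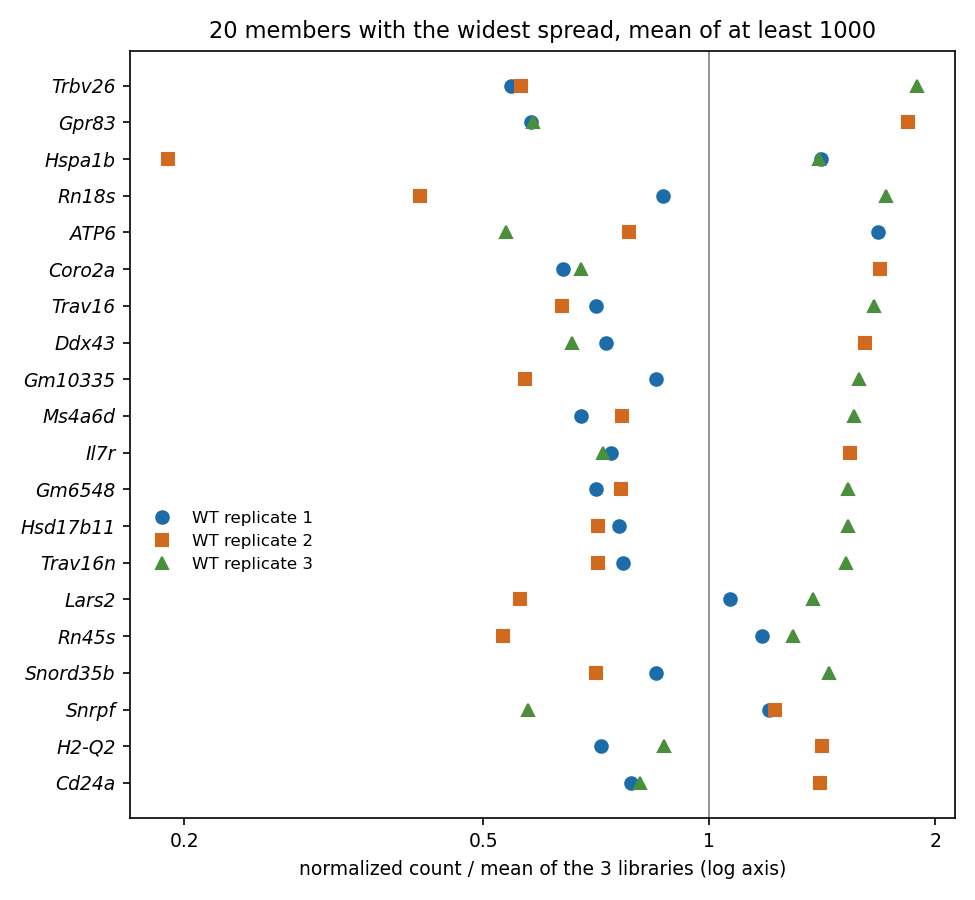
The normalized count of each WT library, divided by the mean of the 3 libraries (log axis), is shown for the 20 members with the highest CV and a mean of at least 1000. *Il7r*, *Gpr83* and *Coro2a* are set apart by replicate 2 on the high side, *Hspa1b* by replicate 2 on the low side, and *Trbv26* by replicate 3 on the high side.

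Over all means of at least 10, the 20 highest CVs were *Trav4d-3*, *Trav4d-4*, *Adamts1*, *Mtus2*, *Rasl10b*, *Ly6a2*, *Gm7429*, *Gvin-ps4*, *Srp54b*, *Trim72*, *Rab6b*, *Trav13-3*, *Gm7244*, *Gm20604*, *Snord3b1*, *Gucy1a1*, *Slc4a5*, *Gm2026*, *Kmo* and *Sp140l2*. *Ly6a2* had 39.6, 33.6 and 1427, and *Srp54b* had 16.8, 18.8 and 342, both with replicate 3 far above the others. Both genes have close relatives, *Ly6a* and *Srp54a*, so their counts are uncertain. *Gucy1a1* and *Gucy1b1*, the subunits of the soluble guanylate cyclase that nitric oxide activates, had 139, 888 and 153 and 104, 462 and 96.1. Both subunits were several times higher in replicate 2 than in the other libraries, and their CVs of 1.09 and 0.947 became 0.0672 and 0.0560 without it. *Mtus2* had 1.98, 245 and 3.81, again highest in replicate 2, and met the rule for members only through that library. Its CV was 1.67, and the CV of 0.447 without replicate 2 rests on counts below 10. *Trim72* had 224, 21.7 and 12.2, highest in replicate 1.

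By limits chosen after the values were seen, 1 library was called set apart where its gap to the nearer of the others took over 0.8 of the range of log2(normalized count + 1). This was so for 187 of the 312 wide members with a mean of at least 100, and for 14 of the 20 widest with a mean of at least 1000. The share of all members past this limit is not given here, so these counts have no background to be read against. Of the 187, replicate 2 was the higher library for 74 and the lower for 37, replicate 3 was the higher for 21 and the lower for 50, and replicate 1 was the higher for 3 and the lower for 2. *Pde3b*, a phosphodiesterase that lowers cyclic AMP, had 38739, 63285 and 40787, and *Ccl5*, a chemokine of memory and effector T cells, had 685, 1089 and 631, both with replicate 2 higher. Their CVs of 0.286 and 0.312 became 0.0364 and 0.0589 without that library. A gene picked because 1 library lay apart must lose CV without it, so this fall is no separate result. The same holds for *Gpr83*, *Coro2a*, *Rn45s*, *Gucy1a1* and *Gucy1b1*, named above after their values were seen. *Snrpf*, a protein of the spliceosome, had 1891, 1924 and 902, with replicate 3 lower. Among these 187, replicate 1 was the library set apart least often, and without a background this is a count only.

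The tightest members with a mean of at least 1000 were *Mark4*, *Ripor2*, *Gm14325*, *Tlk1*, *Zfr*, *Il1rap*, *Prrc2c*, *Cnot1*, *Ncoa2* and *Tmem106c*. *Mark4*, a kinase that acts on microtubules, had 3422, 3427 and 3427, and *Ripor2*, an inhibitor of RhoA in T cells, had 132799.5, 132531 and 132568. All 10 had a CV below that from counting error alone, as did 1721 of the 14276 members (12.1%), so their order does not rank them by biological evenness.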

How the data were processed

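RNA-seq of sorted T_prog_ cells was read from the processed table of the series. The authors aligned reads to mm10 with HISAT2 2.2.1, summarized them by gene with featureCounts and deposited a normalized signal, the count divided by a DESeq2 size factor for each library. The annotation and strand setting are not stated, so overlapping and antisense genes are uncertain. Dividing by the smallest step gave whole reads for 100% of WT values (tolerance 0.01). The deposited log2 fold changes, their errors and adjusted p-values hold the authors' comparison and were not used, nor was the ATAC-seq table. No test was made between groups. CVs used 3 libraries and the SD with n − 1, in Python 3.11.15 with pandas 2.3.3 and numpy 2.4.6, and were tested on simulated data. Counting error was the inverse root of the mean reads. Exon lengths from RefSeq (GRCm38.p6, the build of mm10) matched 13841 of 14276 members (97.0%), and percentiles per kb cover the 13606 of at least 200 bases. The rule for named genes took the highest, lowest and most variable members of each list, the 20 highest by mean, by CV and per kb, the 20 highest by CV with a mean of at least 1000, and the 10 lowest. Other genes of the lists were named for their known roles after their values were seen. A few genes within these rules are left out of the text and not reported here. Members and lists were chosen with earlier results of these data known. The V segments of the transgene, the *Traj* and mitochondrial lists, the limits for a library set apart, the genes named under those limits and the checks of the lists under other scalings or without 1 library were chosen after values were seen. Alternatives covered scaling, the limit on the mean, the measure of spread, each library left out and protein-coding genes only.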

Additional observations from a re-analysis of the deposited data

How the results depend on the processing

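Across 69 alternatives, 65 values stayed within 1.5 times the reported count, or, for the median CV, moved by less than the SD of its values with 1 library left out, and by less than 1 SD over the libraries for the levels of *Slamf6*, *Tcf7*, *Lef1* and *Cd8a*. All 24 alternatives for these 4 levels were among them. Those that left out 1 of the 3 libraries had this outcome fixed in advance. The mean of 3 values always shifts by less than 1 SD when any 1 is dropped, so they say nothing of stability. With a mean of at least 1 in place of 10, the median CV moved from 0.0620 to 0.0822 and the wide members from 1606 to 4634, and with a mean of at least 50 the wide members fell to 527, since members at low counts, of which more were wide, were left out. With each library left out in turn, the median CV ranged from 0.0405 to 0.0633, and the lowest, without replicate 2, was the only other value to move further, a shift whose cause was not tested. The number of members ranged from 12392 to 17619 over all alternatives, and the tight members from 5514 to 8254. With protein-coding genes only, an alternative chosen after seeing the data, 12395 members had a median CV of 0.0558, with 1079 wide and 5514 tight. No paired analysis was possible because the results come from no test between groups. A CV from 3 libraries is itself imprecise, and depth limits what can be said of members with a mean under 100.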
